A study of Homo sapiens with 12 samples.

Results

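Notch signalling in MKL-1 Merkel cell carcinoma cells was followed through 10 genes: the receptors NOTCH1, NOTCH2 and NOTCH3, the ligands DLL1, DLL3, JAG1 and JAG2, and the target genes HES1, HES5 and HEY1. They were taken by symbol, for their place in the pathway, with earlier results of these data known. All 10 were found among the 28813 genes of the authors' normalized gene table. MKL-1 is an established human Merkel cell carcinoma line carrying Merkel cell polyomavirus. The cells received 3 µM EPZ011989 for 6 days, vehicle for 6 days, EPZ011989 for 12 days or vehicle for 12 days, with 3 libraries of polyA-selected RNA in each of these 4 groups. EPZ011989 is a small molecule inhibitor of EZH2, the enzyme that places the silencing mark of Polycomb repressive complex 2 on histone H3. All 12 libraries were exposed to 1% ethanol, the vehicle, and medium was renewed every 3 days as the cells were split. Every group is the same single line, and the labels give triplicates without saying whether they were separate cultures, so each p-value reflects how far these libraries spread, and that spread may be technical.

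Notch receptors are single-pass membrane proteins that bind ligands of the Delta-like and Jagged families on neighbouring cells. Binding exposes the receptor to cleavage, first by an ADAM protease and then by gamma-secretase, and the freed intracellular part enters the nucleus, where it joins the DNA-binding protein RBPJ and a Mastermind coactivator at target genes. The HES and HEY targets encode basic helix-loop-helix (bHLH) repressors, which in many tissues hold down the genes of neural differentiation. In mouse skin, Merkel cells depend on ATOH1, and Notch signalling restrains the Merkel cell fate. DLL3 is unusual among the ligands: it does not activate receptors on neighbouring cells, and it is best known as a marker of neuroendocrine tumours.

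The libraries held 15994997 to 20866370 estimated reads, and 3 reads of a gene corresponded to 0.148 to 0.194 CPM (reads scaled to library size), which sets the lowest level that could be seen. All 10 Merkel cell carcinoma markers examined were at 1 TPM (a length-corrected level) or more in each group. The summed TPM of 6 fibroblast markers was 27.2 to 35.9 in EPZ011989 libraries and 15.6 to 18.3 in vehicle libraries at day 6, and 22.9 to 26.0 and 7.94 to 22.0 at day 12. Most of it was DCN, at 25.4 to 32.5 TPM in EPZ011989 and 13.7 to 17.1 TPM in vehicle libraries at day 6, and its part in the results was not tested. The summed TPM of 5 keratinocyte markers was 14.6 to 15.5 in EPZ011989 and 10.9 to 24.1 in vehicle libraries at day 6, and 10.2 to 20.2 and 10.6 to 15.01 at day 12. Most of it was KRT10, at 14.3 to 15.5 TPM in EPZ011989 and 10.9 to 23.5 TPM in vehicle libraries at day 6. KRT5, KRT14 and DSG3 stayed under 1 TPM, and KRT1 had no read in any library. Leukocyte and endothelial markers summed to at most 2.86 and 1.17 TPM in any library. Replicate 1 of the vehicle group at day 12 stood apart on the third principal component, at -32.3 against -12.7 and 2.57 in the other replicates of its group. The day 12 changes called among the 10 genes are therefore also given without it. Those of pathway genes outside the 10 are given with all 12 libraries only.

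Values per library below are the authors' normalized gene signal, written for replicates 1, 2 and 3 in that order, and group means are ± SD of 3 libraries. Changes are log2 fold changes of EPZ011989 over vehicle ± standard error. A gene was called changed at a Benjamini-Hochberg adjusted p under 0.05 over all genes tested. For NOTCH2, NOTCH3, DLL3, JAG1, JAG2 and HES1 the test was edgeR's quasi-likelihood test on estimated reads summed per gene, over 15024 genes. For NOTCH1, DLL1 and HEY1, whose summed reads reached only 0.053, 0.799 and 0.770 of the authors' level, the test was limma on log2(signal + 1) of the authors' table, over 14618 genes, a scale that understates changes of low genes. In bulk RNA, fewer cells expressing a gene and less RNA per cell cannot be told apart.

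At day 6, 3 of the 6 genes tested with edgeR rose and 0 fell, with 34.2% of all genes called in either direction, 17.1% upwards and 17.0% downwards. Of the 3 tested with limma 2 rose and 0 fell, where 24.3% of all genes were called, 13.4% upwards and 10.9% downwards. The risers were 1 receptor (NOTCH2), 2 ligands (DLL1 and JAG1) and 2 targets (HES1 and HEY1). At day 12, 5 of 6 rose and 0 fell with edgeR, where 66.9% of all genes were called (33.7% upwards, 33.2% downwards), and 2 of 3 rose and 1 fell with limma, where 60.8% were called (31.0% upwards, 29.8% downwards). All 4 ligands and both tested targets were then above vehicle, NOTCH2 stayed above it, and NOTCH1 was below it. The median change of the 6 edgeR genes was 0.44 at day 6 and 1.17 at day 12, beside -0.02 and 0.02 over all genes tested, and that of the 3 limma genes was 0.96 and 0.81, beside -0.02 and 0.02.

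**Figure D1:**
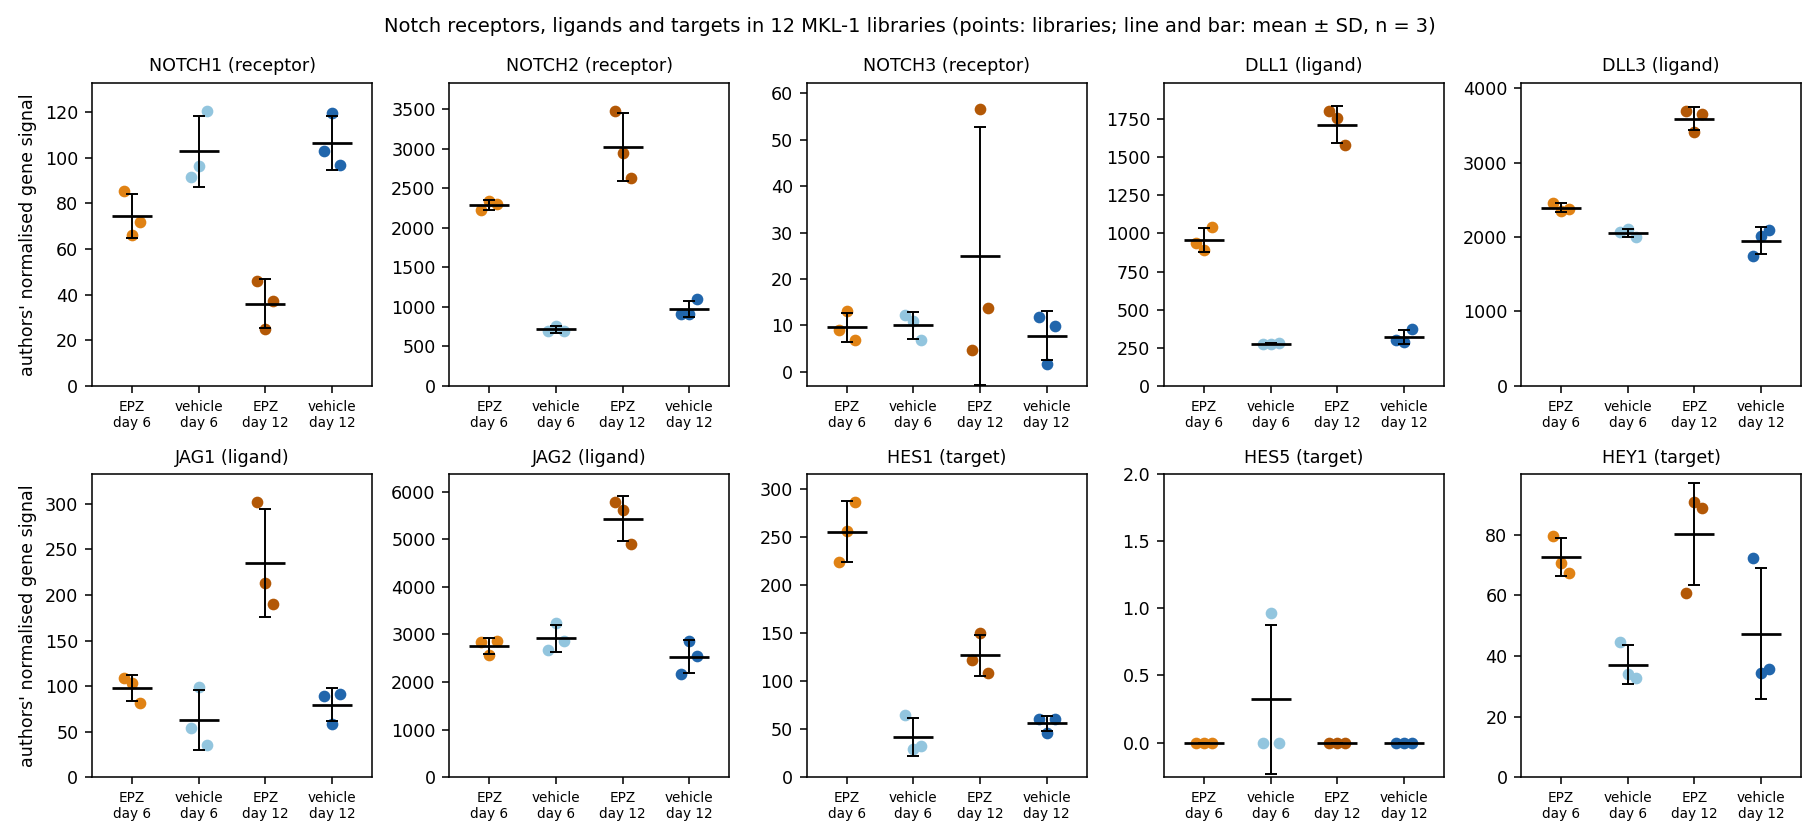
Authors' normalised gene signal (vertical axis, linear) of the 10 Notch genes in 3 libraries of each group, EPZ011989 and vehicle at day 6 and at day 12. Points are libraries, and lines and bars are means ± SD (n = 3). NOTCH2 and DLL1 lie above vehicle at both days, JAG2 and DLL3 separate mainly at day 12, HES1 is highest in EPZ011989 libraries at day 6, and NOTCH1 is lowest in EPZ011989 libraries at day 12.

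NOTCH2 (ENSG00000134250, chromosome 1, 119911553 to 120069626, GRCh38) is a widely expressed receptor. Its signal at day 6 was 2222.5, 2339 and 2304 in EPZ011989 libraries, against 693, 763 and 691 in vehicle libraries. At day 12 it was 3483, 2952 and 2625 in EPZ011989 libraries, against 913, 913 and 1095 in vehicle libraries. Every EPZ011989 library lay above every vehicle library of its day, by about the same factor at both days. The change was 1.60 ± 0.05 at day 6 (edgeR adjusted p = 1.10e-11) and 1.59 ± 0.05 at day 12 (edgeR adjusted p = 9.73e-13). The difference between the days was -0.01 ± 0.07 (edgeR adjusted p = 0.935). Reads of the near-identical NOTCH2NL copies may have been shared with this gene and its values are uncertain to that extent.

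NOTCH1 (ENSG00000148400, chromosome 9, 136494433 to 136545786) is the receptor first known from T cell leukaemia. At day 6 the signal was 85.2, 66.4 and 72.0 in EPZ011989 libraries, against 91.5, 96.5 and 120.7 in vehicle libraries. By day 12 the signal was 46.2, 24.8 and 37.3 in EPZ011989 libraries, against 103, 119.8 and 97.0 in vehicle libraries. The groups did not overlap at either day, and the gap was wide only at day 12. The day 6 change of -0.46 ± 0.25 missed the threshold (limma adjusted p = 0.213), and at day 12 the gene fell by 1.57 ± 0.25 on the log2 scale (limma adjusted p = 9.64e-05).

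The day 12 change of NOTCH1 minus its day 6 change was -1.12 ± 0.35 (limma adjusted p = 0.0242). This call was lost without EPZ011989 day 6 replicate 1 (-1.02), vehicle day 6 replicate 1 (-1.04) or 2 (-1.08), EPZ011989 day 12 replicate 2 (-0.88) or vehicle day 12 replicate 2 (-1.03), with limma adjusted p of 0.0581, 0.0544, 0.0512, 0.0526 and 0.0554, and with no filter on low values (adjusted p = 0.0504). NOTCH1 and NOTCH2 moved in opposite directions at day 12, and each was called.

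NOTCH3 (ENSG00000074181, chromosome 19, 15159038 to 15200981), a receptor best known from vascular smooth muscle, was close to the detection limit, with 127 summed reads over all 12 libraries. Its signal was 8.92, 13.01 and 6.87 in EPZ011989 and 12.2, 10.9 and 6.77 in vehicle libraries at day 6. The day 12 signal was 4.63, 56.6 and 13.6 in EPZ011989 and 11.7, 1.73 and 9.84 in vehicle libraries. The groups overlapped at both days. EPZ011989 day 12 replicate 2 was high in this table, while its summed reads were 14, between the 6 and 17 of the other replicates. In that library a short transcript of 564 bases held 84.6% of the NOTCH3 TPM. The changes of -0.34 ± 0.60 at day 6 and 0.44 ± 0.62 at day 12 did not pass (edgeR adjusted p = 0.709 and 0.550). A change well above these errors would have been needed for a call at this depth.

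DLL1 (ENSG00000198719, chromosome 6, 170282206 to 170306565), an activating ligand, had the largest day 12 rise of the 9 tested genes. After 6 days its signal was 938, 888 and 1041 in EPZ011989 libraries, against 276, 272 and 282 in vehicle libraries. Day 12 values were 1804, 1754.5 and 1577 in EPZ011989 libraries, against 302, 285 and 370.35 in vehicle libraries. There was no overlap at either day, and EPZ011989 libraries of day 12 all lay above those of day 6. DLL1 rose by 1.78 ± 0.11 at day 6 (limma adjusted p = 7.74e-08) and by 2.43 ± 0.11 at day 12 (limma adjusted p = 2.83e-10). The day 12 rise was larger by 0.64 ± 0.15 (limma adjusted p = 0.00489); edgeR on the partly summed reads gave 0.79 for this difference without a call (adjusted p = 0.0736).

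JAG1 (ENSG00000101384, chromosome 20, 10637684 to 10673999), the Jagged ligand mutated in Alagille syndrome, was lower in signal. At day 6 it was 109, 104 and 81.3 in EPZ011989 libraries, against 53.7, 98.7 and 34.9 in vehicle libraries. After 12 days it was 302, 213 and 190.25 in EPZ011989 libraries, against 88.9, 58.5 and 91.7 in vehicle libraries. In this signal the groups overlapped at day 6, through vehicle replicate 2, and were apart at day 12. The summed reads at day 6 did not overlap, with 95 or more in EPZ011989 libraries and 84 or fewer in vehicle libraries. JAG1 rose by 0.73 ± 0.23 at day 6 (edgeR adjusted p = 0.0245) and by 1.51 ± 0.23 at day 12 (edgeR adjusted p = 3.34e-05).

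The day 6 call for JAG1 was lost with transcript lengths as an offset (0.69, edgeR adjusted p = 0.182), with limma on the authors' table (0.76, adjusted p = 0.117), and without EPZ011989 day 6 replicate 1 (0.72) or 2 (0.67) or vehicle day 6 replicate 3 (0.55). The difference between its days, 0.79 ± 0.32, missed the threshold (edgeR adjusted p = 0.0570). It passed with DESeq2 (0.79, adjusted p = 0.0403), with library totals in place of TMM (0.82, edgeR adjusted p = 0.0457), without vehicle day 6 replicate 3 (0.97, edgeR adjusted p = 0.0187) and without vehicle day 12 replicate 1 (1.05, edgeR adjusted p = 0.01002).

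JAG2 (ENSG00000184916, chromosome 14, 105140981 to 105168824), the second Jagged ligand, had the largest difference between the days of the 4 ligands. Day 6 signals were 2836, 2565.5 and 2868.5 in EPZ011989 libraries, against 2676.5, 3229.7 and 2853 in vehicle libraries. The values at day 12 were 5782, 5609.5 and 4894 in EPZ011989 libraries, against 2171, 2869.8 and 2554.5 in vehicle libraries. The groups overlapped at day 6 and were far apart at day 12. The day 6 change of -0.08 ± 0.07 did not pass (edgeR adjusted p = 0.429), and at day 12 JAG2 rose by 1.14 ± 0.07 (edgeR adjusted p = 4.11e-09). The difference between the days was 1.22 ± 0.10 (edgeR adjusted p = 3.13e-07).

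DLL3 (ENSG00000090932, chromosome 19, 39498895 to 39508481) was expressed in every group. Its signal at day 6 was 2458, 2345 and 2382 in EPZ011989 libraries, against 2065, 2104 and 1999 in vehicle libraries. At day 12 it was 3697, 3408 and 3658 in EPZ011989 libraries, against 1742, 2014 and 2098 in vehicle libraries. The groups did not overlap at either day, but at day 6 they lay close together. The day 6 change of 0.15 ± 0.10 did not pass (edgeR adjusted p = 0.271), and at day 12 DLL3 rose by 1.07 ± 0.10 (edgeR adjusted p = 2.33e-07). The difference between the days was 0.92 ± 0.14 (edgeR adjusted p = 8.51e-05).

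The small day 6 rise of DLL3 was called with transcript lengths as an offset (0.24, edgeR adjusted p = 0.0239), with limma on the authors' table (0.22, adjusted p = 0.0329), with the day 6 libraries alone (0.18, edgeR adjusted p = 0.00453) and without vehicle day 12 replicate 1 (0.15, edgeR adjusted p = 0.0295).

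HES1 (ENSG00000114315, chromosome 3, 194136145 to 194138732), the bHLH repressor that is the usual readout of Notch activity, had the largest day 6 rise of the 9 tested genes. At day 6 the signal was 224, 257 and 287 in EPZ011989 libraries, against 64.3, 29.3 and 32.2 in vehicle libraries. By day 12 the signal was 122.6, 149.96 and 108 in EPZ011989 libraries, against 60.9, 46.5 and 60.5 in vehicle libraries. EPZ011989 libraries were above vehicle libraries at both days, and those of day 12 were all below those of day 6. HES1 rose by 2.60 ± 0.25 at day 6 (edgeR adjusted p = 2.41e-06) and by 1.195 ± 0.25 at day 12 (edgeR adjusted p = 0.000710). The rise at day 12 was smaller by a log2 difference of -1.41 ± 0.35 (edgeR adjusted p = 0.00453).

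HEY1 (ENSG00000164683, chromosome 8, 79764010 to 79767863), a related bHLH repressor, had a signal of 79.5, 70.5 and 67.4 in EPZ011989 libraries at day 6, against 44.7, 34.1 and 32.7 in vehicle libraries. The day 12 signal was 60.8, 90.8 and 88.9 in EPZ011989 libraries, against 72.2, 34.2 and 35.8 in vehicle libraries. The groups were apart at day 6 and overlapped at day 12, where vehicle replicate 1 was higher than EPZ011989 replicate 1. The rises were 0.96 ± 0.31 at day 6 and 0.81 ± 0.31 at day 12 (limma adjusted p = 0.0365 and 0.0345), and the difference between the days was -0.15 ± 0.43 (limma adjusted p = 0.818).

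Both calls of HEY1 were fragile. That of day 6 was lost without EPZ011989 day 6 replicate 1 (0.89), 2 (0.97) or 3 (1.01) or vehicle day 6 replicate 2 (0.90) or 3 (0.87), and with the partly summed reads (0.84, edgeR adjusted p = 0.180). That of day 12 was lost without EPZ011989 day 12 replicate 2 (0.71) or 3 (0.72) or vehicle day 12 replicate 2 (0.62) or 3 (0.65), and with the day 12 libraries alone (0.81, limma adjusted p = 0.0752). Both were lost with no filter on low values (limma adjusted p = 0.0740 and 0.0679). At day 12 the partly summed reads gave a larger change (1.79, edgeR adjusted p = 0.00444).

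HES5 (ENSG00000197921, chromosome 1, 2528745 to 2530245), a target gene prominent in neural progenitors, had 0 summed reads in all 12 libraries, so that any level was below the 0.148 to 0.194 CPM that 3 reads allow in a library, counting error only. In the authors' table it was listed at 0.965 in vehicle day 6 replicate 2 and at 0 elsewhere. It was not tested. The 3 target genes thus fell into a strong riser, a weak riser and a gene without detected reads.

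**Figure D2:**
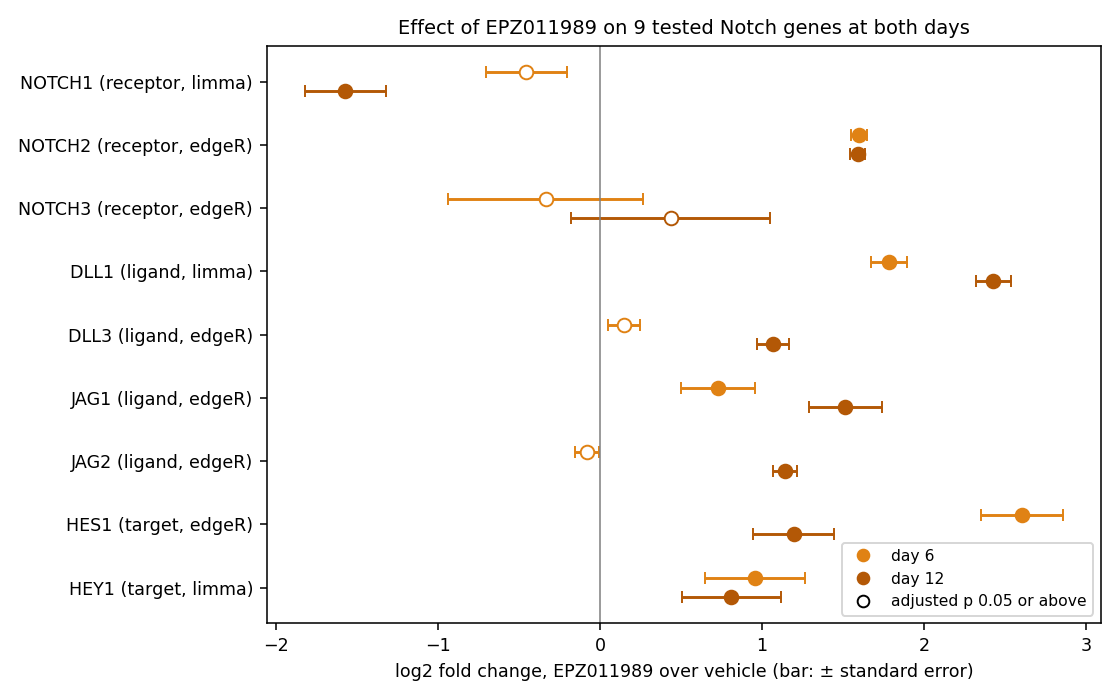
Log2 fold change of EPZ011989 over vehicle (horizontal axis) ± standard error for the 9 tested Notch genes at day 6 and day 12, with the test behind each. Filled points passed an adjusted p of 0.05. HES1 lies at 2.60 and 1.195, JAG2 at -0.08 and 1.14, and NOTCH2 at 1.60 and 1.59.

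The difference between the days was called for 3 of the 6 edgeR genes, 2 upwards (DLL3, JAG2) and 1 downwards (HES1), where 47.7% of all genes were called (22.6% upwards, 25.1% downwards). It was called for 2 of the 3 limma genes, 1 upwards (DLL1) and 1 downwards (NOTCH1), where 37.2% were called (17.6% upwards, 19.6% downwards). By role, 3 of 4 ligands had a larger day 12 change and the fourth, JAG1, missed the threshold. NOTCH2, NOTCH3 and HEY1 were not called, and HES1 was called in the opposite direction to the ligands. Set against its day 12 change, the day 6 log2 change of HES1 amounted to 218%, that of NOTCH2 to 101%, that of DLL1 to 73.5%, that of JAG1 to 48.0% and that of DLL3 to 13.9%.

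EPZ011989 at day 12 was also set directly against EPZ011989 at day 6, without the vehicle libraries. HES1 fell by 1.05 ± 0.23 (edgeR adjusted p = 0.00139), whereas JAG1 rose by 0.98 ± 0.22, JAG2 by 0.94 ± 0.07, DLL3 by 0.64 ± 0.10 and NOTCH2 by 0.31 ± 0.04 (edgeR adjusted p of 0.00146, 6.06e-08, 5.66e-05 and 4.06e-05). NOTCH1 fell by 1.06 ± 0.25 and DLL1 rose by 0.84 ± 0.11 (limma adjusted p = 0.00312 and 2.39e-05). NOTCH3 (0.26 ± 0.60) and HEY1 (0.12 ± 0.31) did not pass. These are 5 of 6 edgeR genes called, with 57.6% of all genes called, and 2 of 3 limma genes, with 49.0%. The comparison shares its EPZ011989 libraries with the treatment effects above.

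In vehicle cells, day 12 against day 6, NOTCH2 rose by 0.31 ± 0.05 and JAG2 fell by 0.29 ± 0.07 on the log2 scale (edgeR adjusted p = 0.00480 and 0.0264), which is 2 of 6 genes where 13.1% of all genes were called (5.96% upwards, 7.15% downwards). None of the 3 limma genes was called (0 at an adjusted p under 0.05, where 0.971% of all genes were called, 0.479% upwards and 0.493% downwards), with NOTCH1 at 0.06 ± 0.25, DLL1 at 0.20 ± 0.11 and HEY1 at 0.27 ± 0.31; their unadjusted limma p ran from 0.0920 to 0.826, and edgeR on the partly summed reads called neither DLL1 nor HEY1. With only the vehicle libraries in the fit, neither NOTCH2 (0.31, edgeR adjusted p = 0.0632) nor JAG2 (-0.29, edgeR adjusted p = 0.108) was called. Both calls were also lost with limma on the authors' table (0.44 and -0.21, adjusted p = 0.0523 and 0.265), and that of JAG2 with transcript lengths as an offset (-0.20, edgeR adjusted p = 0.305). JAG2 was also lost without vehicle day 6 replicate 2 (-0.26) or 3 (-0.27) or vehicle day 12 replicate 1 (-0.18) or 2 (-0.32). Without vehicle day 6 replicate 1, HES1 was called (0.80, edgeR adjusted p = 0.0385), and without vehicle day 12 replicate 3 so was DLL3 (-0.39, edgeR adjusted p = 0.00797). On all libraries DLL3 was at -0.28 ± 0.10 (edgeR adjusted p = 0.0756), and it was called with DESeq2 (-0.27, adjusted p = 0.0319) and with no low-count filter (-0.28, edgeR adjusted p = 0.02296).

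Without vehicle day 12 replicate 1, the library that stood apart, the day 12 changes were 1.58 for NOTCH2, 0.92 for DLL3, 1.26 for HES1, -1.60 for NOTCH1, 2.39 for DLL1, 1.15 for HEY1, 1.775 for JAG1 and 1.035 for JAG2, and each stayed called. The differences between the days were then 0.77 for DLL3, 1.116 for JAG2, -1.35 for HES1, -1.14 for NOTCH1 and 0.61 for DLL1, and each stayed called. HEY1 then had a difference of 0.19 in place of -0.15, without a call under either.

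**Figure D3:**
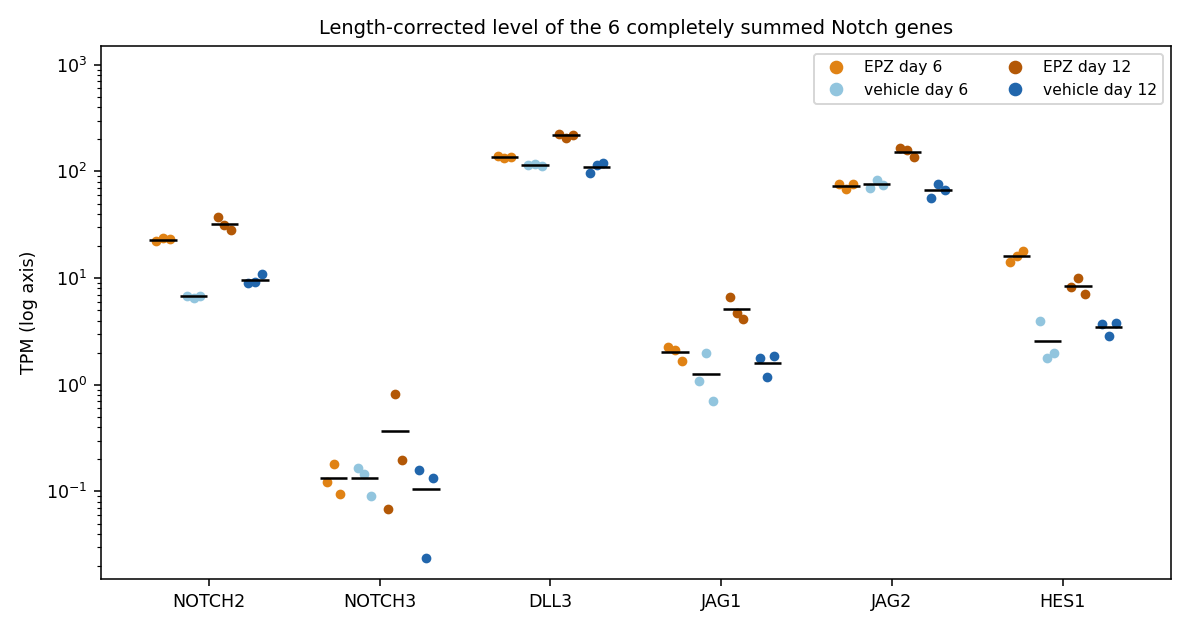
TPM (log axis) of the 6 Notch genes whose reads were summed completely, in EPZ011989 and vehicle libraries at day 6 and day 12. Points are libraries and lines are group means of 3. DLL3 lies highest in every group, from 97 to 226 TPM over all 12 libraries, and NOTCH3 lies lowest.

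Levels of different genes were compared in TPM, which corrects for transcript length, for the 6 completely summed genes. The order in all 4 groups was DLL3, JAG2, NOTCH2, HES1, JAG1 and NOTCH3. In EPZ011989 libraries at day 6 the means were 137 ± 3.43, 73.5 ± 4.61, 22.9 ± 0.772, 16.04 ± 1.99, 2.02 ± 0.297 and 0.132 ± 0.0428 TPM in that order, and in vehicle libraries 115 ± 2.72, 75.98 ± 6.999, 6.75 ± 0.153, 2.57 ± 1.199, 1.26 ± 0.654 and 0.134 ± 0.0385 TPM. Neighbours in this order had separate ranges in every group except HES1 and JAG1 in vehicle at day 6. At day 12 the means were 218 ± 9.93, 153.5 ± 13.9, 32.2 ± 4.80, 8.44 ± 1.41, 5.15 ± 1.32 and 0.365 ± 0.406 TPM in EPZ011989 libraries and 109.8 ± 11.5, 66.4 ± 9.69, 9.65 ± 1.122, 3.45 ± 0.494, 1.62 ± 0.369 and 0.105 ± 0.0715 TPM in vehicle libraries. The ligand genes DLL3 and JAG2 thus exceeded the receptor gene NOTCH2 in TPM under every condition.

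Transcript shares were also read for the ligands with the highest level. A coding transcript of 2004 bases held 66.5% ± 1.61 of the DLL3 TPM in EPZ011989 and 71.4% ± 4.79 in vehicle libraries at day 12, and one of 2332 bases held 29.9% ± 2.58 and 25.9% ± 5.32. The shares of both transcripts overlapped between the groups at day 12. At day 6 that of 2332 bases held 25.97 to 28.96% in EPZ011989 and 20.6 to 25.4% in vehicle libraries, which did not overlap. Of the JAG2 TPM, the protein-coding transcript of 5773 bases held 44.7% ± 5.36 in EPZ011989 and 46.3% ± 3.86 in vehicle libraries at day 12, while 2 transcripts annotated as retained introns held most of the rest. In absolute terms the coding transcript was at 66.3 to 70.2 TPM in EPZ011989 libraries and 25.7 to 34.0 TPM in vehicle libraries at day 12, which are separate ranges. The shares are Salmon's estimates and were not tested.

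The promoters of the target genes are shown because RBPJ, the DNA-binding partner of the receptors, is known to act at HES genes. The 250 bases upstream of the RefSeq start (build GRCh38.p14) are given 5′ to 3′ on the gene's strand, with the RBPJ core motif TGGGAA, or TTCCCA where it lies on the opposite strand, in capitals. The HES1 window is chr3:194135898-194136147 on the plus strand and the HES5 window chr1:2530264-2530513 on the minus strand.
HES1: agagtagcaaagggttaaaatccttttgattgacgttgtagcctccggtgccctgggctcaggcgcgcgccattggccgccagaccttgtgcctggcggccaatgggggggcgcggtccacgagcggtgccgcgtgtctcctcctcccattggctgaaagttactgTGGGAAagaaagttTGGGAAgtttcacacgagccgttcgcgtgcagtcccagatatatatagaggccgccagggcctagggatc
HES5: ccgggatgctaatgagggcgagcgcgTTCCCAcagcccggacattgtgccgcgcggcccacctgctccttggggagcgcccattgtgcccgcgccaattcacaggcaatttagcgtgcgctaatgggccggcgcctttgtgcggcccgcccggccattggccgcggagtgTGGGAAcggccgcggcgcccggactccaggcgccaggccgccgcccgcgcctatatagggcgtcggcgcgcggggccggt

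HES1 held the RBPJ core with first bases at -84 and -70, both on its own strand and counted back from -1 at the base before the start. HES5 held it at -224, on the opposite strand, and at -80. Of 35116 promoters searched over the same length on both strands, 20.8% held the core at least once and 2.90% held it 2 or more times. The longer form GTGGGAA, which contains the core, occurred once in HES1 and 2 times in HES5, and in 5.43% of all promoters. The N box CACNAG, a site form bound by HES proteins, occurred 3 times in HES1 and 0 times in HES5, and in 32.0% of all promoters. HES1 and HES5 thus both held 2 exact core matches. A site that departs from the core sequence, on either strand, would not have been found. The search was for single motifs, and whether any of these matches forms a paired RBPJ site was not tested.

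**Figure D4:**
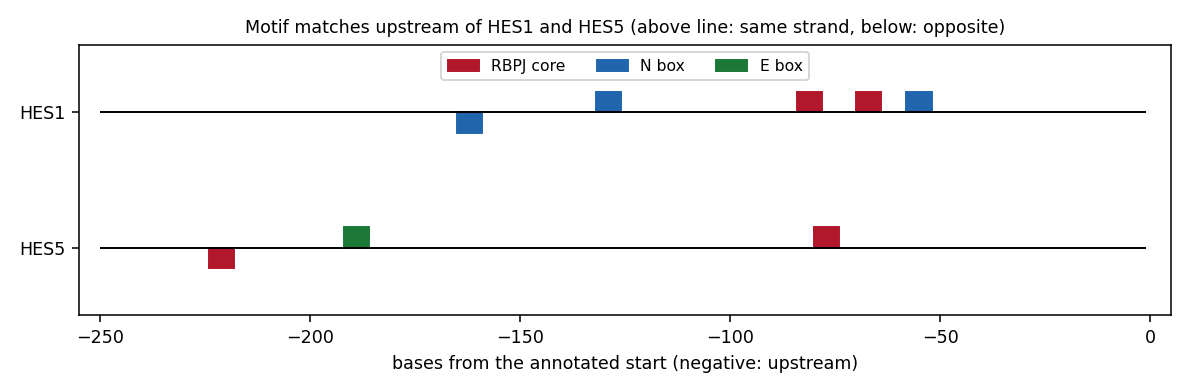
Matches to the RBPJ core, the N box and the E box in the 250 bases upstream of HES1 and HES5 (horizontal axis: bases from the annotated start). Boxes above a line are on the gene's strand and boxes below it on the opposite strand. HES1 has 2 RBPJ core and 3 N box matches, and HES5 has 2 RBPJ core and 1 E box match.

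Of the 10 genes, 7 had a promoter in the RefSeq table used. None of NOTCH1, NOTCH2, NOTCH3, JAG1 and JAG2 held the RBPJ core in the 250 bases upstream. All 7 windows had more CpG dinucleotides than the median of 11 over all promoters, with 38 in JAG2, 36 in HES5, 33 in NOTCH1, 29 in NOTCH2, 28 in NOTCH3, 18 in HES1 and 17 in JAG1.

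The genes whose pattern over the 12 libraries was most like each Notch gene were named by the 2 highest Pearson correlations of log2 values, over about 13510 genes, as a description without a test, since the libraries share the treatment. NOTCH2 was most like CDK6 and VCAN (r = 0.995 each), DLL1 like NAV1 and PALLD (r = 0.996 each) and JAG2 like ESPN and RNF123 (r = 0.995 each). DLL3 was most like CYB561 and SLC25A29 (r = 0.993 each), and JAG1 like ALG2 and RAB30 (r = 0.978 each). HES1 was most like STC1 (r = 0.979) and WNT7A (r = 0.978). NOTCH1 was most like CENPL (r = 0.979) and PDGFD (r = 0.970), and HEY1 like C8orf37 and TENT5C, at an r of 0.929 and 0.924. Many other genes came close for most of them. An r over 0.95 was reached by 374 genes for NOTCH2, 565 for DLL1, 365 for JAG2 and 242 for DLL3. It was reached by 98 for JAG1, 41 for NOTCH1, 20 for HES1 and 0 for HEY1.

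A wider list of 57 genes of the pathway, in 7 roles, held 51 tested genes, MAML1 and ITCH by limma and the others by edgeR, while the other 6 were not tested. At day 6, 18 rose and 11 fell, where edgeR called 34.2% of all genes (17.1% upwards, 17.0% downwards). At day 12, 24 rose and 12 fell, where it called 66.9% (33.7% upwards, 33.2% downwards). The median change of the tested genes was -0.002 at day 6 and 0.21 at day 12. Of 13 endocytosis and turnover regulators, 6 rose and 1 fell at day 6, and 9 rose and 0 fell at day 12. Those that rose at day 12 included NEURL1B, a ligand ubiquitin ligase (2.76 ± 0.08, edgeR adjusted p = 6.36e-13), AAK1, a kinase of endocytosis (1.19 ± 0.07), and DTX1, a ubiquitin ligase that acts on the receptors (2.12 ± 0.24). Of 14 nuclear cofactors, 5 rose and 4 fell at day 6, and 5 rose and 6 fell at day 12.

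Among the ligands outside the 10, DLL4, an activating ligand known from blood vessels, changed direction between the days. After 6 days its signal was 399, 405 and 438 in EPZ011989 libraries, against 241, 245 and 229.6 in vehicle libraries, a rise of 0.70 ± 0.09 (edgeR adjusted p = 3.93e-05). Day 12 values were 153, 169.8 and 172 in EPZ011989 libraries, against 316, 284.5 and 327 in vehicle libraries, and it fell by 0.95 ± 0.09 on the log2 scale (edgeR adjusted p = 5.50e-07). The groups were apart at both days, in opposite directions, and the difference of -1.64 ± 0.13 was called (edgeR adjusted p = 1.74e-07). DLK2, a Delta-like protein without the receptor-binding domain of the ligands, rose by 2.03 ± 0.13 at day 6 and by 4.30 ± 0.13 at day 12 (edgeR adjusted p = 3.32e-08 and 1.21e-12). NOTCH4, whose reads came from a transcript annotated as a retained intron, was not called at either day (edgeR adjusted p = 0.467 and 0.0985).

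RBPJ itself was abundant and changed late. Its signal at day 12 was 3349, 3378 and 3688 in EPZ011989 libraries, against 6119.9, 5275 and 4772 in vehicle libraries, with no overlap, and it fell by 0.62 ± 0.06 on the log2 scale (edgeR adjusted p = 4.57e-07). At day 6 its change was -0.08 ± 0.06 (edgeR adjusted p = 0.364). Of the coactivators, MAML3 rose by 0.64 ± 0.08 at day 6 and 1.70 ± 0.08 at day 12. MAML1, also a Mastermind coactivator, fell by 0.21 ± 0.07 and 0.47 ± 0.07 on the log2 scale (limma adjusted p = 0.0421 and 4.53e-05). The corepressor SPEN fell by 0.27 ± 0.04 at day 6 and by 0.70 ± 0.04 at day 12. MAML2, named after its values were seen, had a signal of 30.9, 39.5 and 59.4 in EPZ011989 libraries at day 12, against 4.43, 0 and 1.08 in vehicle libraries, so that its fold rests on very few vehicle reads. TLE4, a Groucho-type corepressor, rose by 1.41 ± 0.15 at day 6 and by 1.43 ± 0.15 at day 12 (edgeR adjusted p = 5.24e-06 and 9.49e-07). The other TLE genes of the list did not move as 1 group. TLE1 fell by 0.65 ± 0.09 and 1.18 ± 0.09 on the log2 scale (edgeR adjusted p = 6.33e-05 and 3.17e-08). TLE2 rose by 0.63 ± 0.09 and 1.58 ± 0.09, and TLE3 was called only at day 12 (0.41 ± 0.08).

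Of 5 tested target genes outside the 10, 3 rose and 1 fell at each day, where edgeR called 34.2% of all genes at day 6 and 66.9% at day 12. HEYL rose by 1.19 ± 0.23 at day 6 and 1.17 ± 0.23 at day 12, HES4 by 1.21 ± 0.29 and 1.53 ± 0.30, and HEY2 by 1.35 ± 0.37 and 2.25 ± 0.39 (edgeR adjusted p between 0.0112 and 0.000157). None of these 3 had a called difference between the days (edgeR adjusted p = 0.964, 0.545 and 0.189). NRARP, a target that limits Notch activity, fell by 0.32 ± 0.11 at day 6 and by 0.62 ± 0.11 at day 12 on the log2 scale. ATOH1, the Merkel cell bHLH factor that HES proteins repress in other tissues, was at 498 ± 10.5 TPM in EPZ011989 and 498 ± 8.52 TPM in vehicle libraries at day 6. At day 12 it was at 503 to 528 TPM in EPZ011989 and 435 to 491 TPM in vehicle libraries, which are separate ranges. In the authors' signal the day 12 ranges overlapped, at 10608 to 11248 in EPZ011989 and 10062 to 11154 in vehicle libraries. The EPZ011989 change of ATOH1 was called at neither day (-0.04 ± 0.04 and 0.05 ± 0.04, edgeR adjusted p = 0.547 and 0.335). In vehicle cells ATOH1 fell by 0.15 ± 0.04 on the log2 scale between day 6 and day 12 (edgeR adjusted p = 0.0371). The vehicle TPM ranges overlapped, at 489 to 506 at day 6 and 435 to 491 at day 12. This call was not checked under other settings. NEUROG2, a neurogenic bHLH factor, was at 1.35 ± 0.52 at day 6 without a call (edgeR adjusted p = 0.0581) and rose by 1.204 ± 0.50 at day 12 (edgeR adjusted p = 0.0461), and the difference between the days was not called (-0.15 ± 0.71, edgeR adjusted p = 0.885).

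Of 9 genes of receptor cleavage, 2 rose and 2 fell at day 6, where edgeR called 34.2% of all genes. At day 12, 3 rose and 2 fell, where it called 66.9%. FURIN, which cuts the receptor precursor, fell by 0.87 ± 0.07 at day 6 and by 0.75 ± 0.07 at day 12 on the log2 scale, and the gamma-secretase subunit gene APH1B rose by 0.83 ± 0.09 and 1.34 ± 0.09. PSEN2, a catalytic subunit gene of gamma-secretase named after its values were seen, rose by 1.31 ± 0.15 at day 6 and by 1.504 ± 0.15 at day 12 (edgeR adjusted p = 1.14e-05 and 4.95e-07). Of the Fringe glycosyltransferases, which tune the response to each ligand family, LFNG fell by 0.93 ± 0.15 at day 6 and by 0.53 ± 0.15 at day 12 (edgeR adjusted p = 0.000200 and 0.00701). The difference between its days was not called (0.40 ± 0.21, edgeR adjusted p = 0.132). Its mean authors' signal in EPZ011989 and vehicle libraries was 166 ± 19.7 and 278 ± 38.1 at day 6, and 100 ± 16.6 and 187 ± 16.5 at day 12. Relative to vehicle, these means were lower at day 12 than at day 6, the reverse order of the edgeR changes. The timing of LFNG thus depends on the measure, and the reason was not tested. In vehicle cells LFNG fell by 1.0008 ± 0.15 between day 6 and day 12 (edgeR adjusted p = 0.00421), more than its mean authors' signal did. Genes of the wider list were tested under the main setting only. MFNG fell by 0.37 ± 0.07 at day 6 and rose by 0.45 ± 0.07 at day 12 (edgeR adjusted p = 0.000686 and 3.70e-05), and in vehicle cells it fell by 0.44 ± 0.07 between the days (edgeR adjusted p = 0.00496). POFUT1, the O-fucosyltransferase of the receptors, was at -0.15 ± 0.07 at day 6 without a call (edgeR adjusted p = 0.114) and fell by 0.62 ± 0.07 at day 12.

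**Figure D5:**
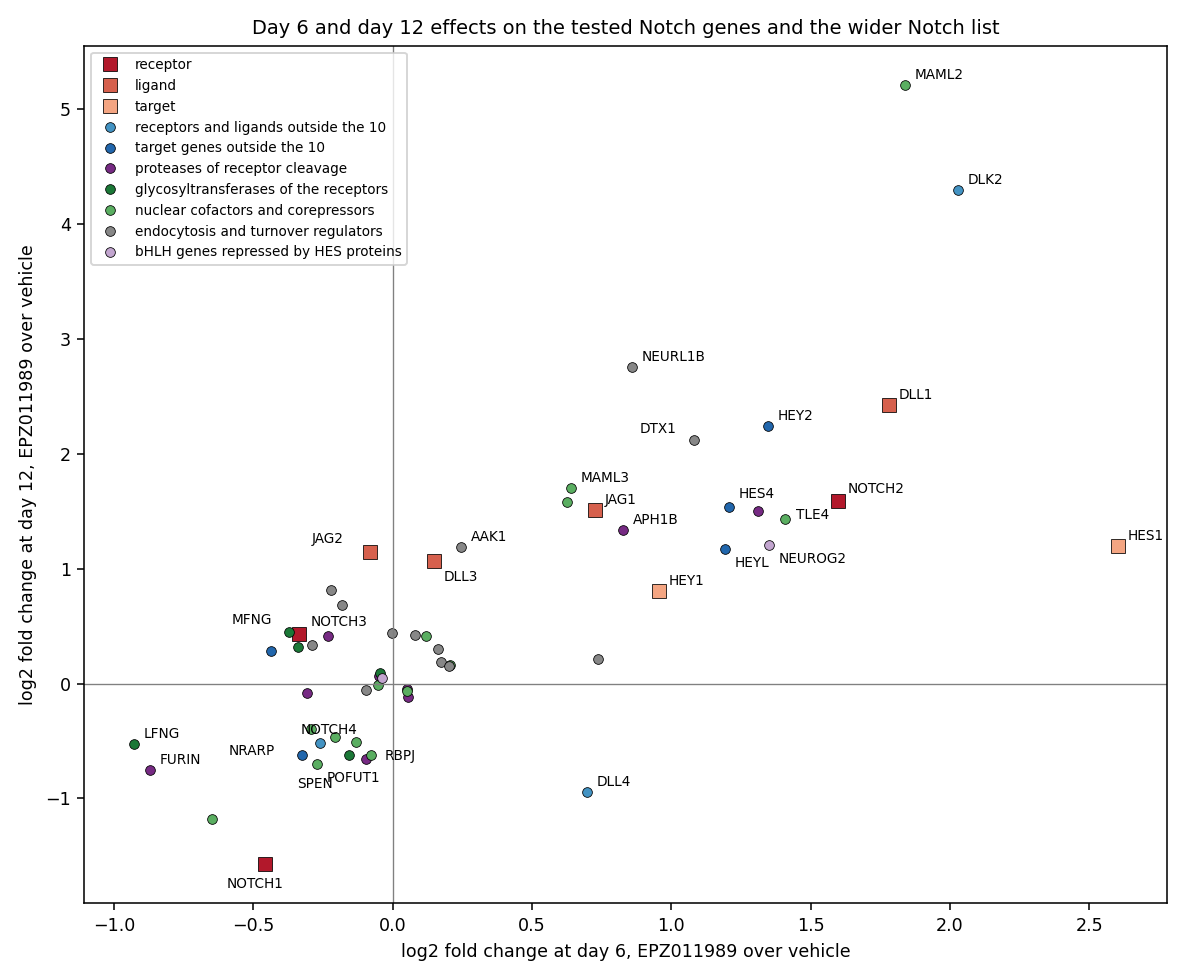
Log2 fold change of EPZ011989 over vehicle at day 6 (horizontal axis) and day 12 (vertical axis) for the 9 tested Notch genes (squares) and the tested genes of the wider list (circles), coloured by role. DLL4 lies at 0.70 and -0.95, HES1 lies farthest right at 2.60, and NOTCH1 lies lowest at -1.57 on the vertical axis.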

How the data were processed

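MKL-1 RNA was sequenced as 12 polyA-selected libraries, per the labels. The deposited files hold estimated counts and TPM per transcript from Salmon 1.2.0. The submitters' processing notes list that version, FastQC, DESeq2 and hg38, per the labels. A deposited table holds the authors' normalized gene signal; how it was normalized is not given in the sources.

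Of 179883 transcripts 168219 (93.5%) were matched by identifier to GENCODE genes (GRCh38); the unmatched held 3.08 to 3.58% of a library's reads. Estimated counts were summed per gene and rounded. The 4 groups were fitted together in edgeR 4.0.16 (R 4.3.3; filterByExpr, TMM, quasi-likelihood, two-sided, 15024 genes). Members with a summed level outside 0.8 to 1.25 of the authors' were tested with limma 3.58.1 on log2(signal + 1), keeping genes at 10 or more in at least 3 libraries (14618 genes); this was chosen after seeing the data. The planned protein comparison was not run.

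The members, the wider list and the alternatives were chosen with earlier results of these data known. Named wider genes are the 2 with the smallest p per role among called genes at each day, plus RBPJ, NOTCH4 and DLL4. ATOH1, MAML1, MAML2, PSEN2, TLE1, TLE2 and TLE3 were named after their values were seen. Replicate numbers did not pair the libraries: 1 of 18 same-number correlations exceeded 0.1. The scripts were tested on simulated counts. Alternatives included DESeq2 1.42.0, other scalings and filters, transcript lengths, a replicate block and leaving out each library.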

Additional observations from a re-analysis of the deposited data

Results flagged for a closer look

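The effect of EPZ011989 differed between day 12 and day 6 for the Notch genes and named pathway genes below, by the test of that difference (edgeR's quasi-likelihood test, or limma for NOTCH1 and DLL1, adjusted p under 0.05). Values are the day 12 effect minus the day 6 effect on the log2 scale, with 47.7% of all genes called in the edgeR test and 37.2% in the limma test.

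Among the receptors and ligands, NOTCH1 was at -1.12, DLL1 at 0.64, DLL3 at 0.92, JAG2 at 1.22, DLL4 at -1.64 and DLK2 at 2.27. The target HES1 was at -1.41. Among genes of receptor processing, APH1B was at 0.51, POFUT1 at -0.47 and MFNG at 0.82. Among nuclear factors, RBPJ was at -0.54, MAML3 at 1.06 and SPEN at -0.43. Among regulators of turnover, NEURL1B was at 1.90, DTX1 at 1.03 and AAK1 at 0.94. Of the 51 tested genes of the wider list, 24 were called in this test, 16 upwards and 8 downwards, and the genes listed here are only a part of them. HES1 and DLL4 had their higher effect at day 6, whereas DLL3, JAG2 and DLK2 had it at day 12.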

How the results depend on the processing

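Of 400 values of single Notch genes under settings other than leaving out a library, 367 kept direction and side of the threshold. Direction changed for the NOTCH2 difference between days (0.028 with library totals), the HEY1 difference (0.96), and DLL1 (-0.051) and HEY1 (-0.82) in vehicle over time, the last 3 with edgeR on partly summed reads; none was called either way, and the cause was not tested. Leaving out each library gave 504 unchanged of 540. Direction changed within these ranges: NOTCH2 difference -0.041 to 0.0091, HEY1 difference -0.33 to 0.19, NOTCH3 at day 12 -0.054 to 0.81 and in EPZ011989 over time -0.10 to 0.60, and in vehicle over time NOTCH1 -0.030 to 0.18, JAG1 -0.068 to 0.41 and HEY1 -0.070 to 0.46.

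Genes called at day 6 by edgeR numbered 5133, against 3236 with transcript lengths and 3402 at adjusted p under 0.01. By limma they numbered 3553, against 2010 at 0.01, and for the difference 5444 against 3591. Vehicle over time was least stable: edgeR's 1970 genes became 89 with transcript lengths, 142 and 137 with limma at pseudocounts 1 and 5, 181 at 0.01, 9 with only the vehicle libraries and 184 to 4183 without single libraries. Limma's 142 became 63 without the low-value filter, 8 at 0.01, 1 with only the vehicle libraries and 10 to 1167 without single libraries. Notch genes called there by edgeR, 2, became 1 with transcript lengths or at 0.01, 0 with limma at either pseudocount or with only the vehicle libraries, and 1 to 3 without single libraries. Limma's 2 called Notch genes, at day 6 and for the difference, each became 1 without the low-value filter or at 0.01, and 1 to 2 without single libraries.

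With the replicate number as a block no call of a Notch gene changed, and limma's vehicle count was 217. Depth limits NOTCH3 and HES5.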
